A study of Mus musculus with 44 samples.

Results

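Transfer RNA fragments (tRFs) are short RNAs cut from mature tRNAs or their precursors, and 96 of them from glutamate tRNAs are described here across 44 mouse hypothalamus libraries. They were chosen from a table of 17051 tRFs as those that the table assigns only to glutamate tRNAs (anticodons CTC, TTC or both), that it types as internal fragments (i-tRF), 3'-tRFs or pieces of the 3'-half type, and that had at least 220 counts over the 44 libraries. There were 1600 glutamate fragments of these types, and 1504 of them stayed below 220 counts. The 96 fragments held 93.7% of the counts of those 1600. The nearest fragments inside the limit were tRF-27-V47P596VW6J with 230 counts and tRF-19-73V2Y81W with 235 counts. The nearest outside it were tRF-30-KL9MVH7P59N3 with 215 counts and tRF-43-Z6KPQJ3KYU4RRWRBD2 with 212 counts.

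The libraries came from C57Bl/6J mice of 3 groups. AM132 mice (16 libraries) had become obese on 11 weeks of high-fat diet and then received a 16-mer oligonucleotide with locked nucleic acid chemistry that pairs with miR-132. AM608 mice (16 libraries) had the same diet and received a 15-mer of the same chemistry against miR-608, a miRNA of primates, as the control. Both oligonucleotides were given into a vein at 3.3 mg/kg on 3 successive days, and the mice were killed 7 days after treatment. RCD mice (12 libraries) were lean, age-matched animals on regular chow and no injection is described for them, so that the diet and the injection cannot be told apart where obese mice are set against them. The labels name 4 batches without saying what a batch was. Of the AM132 libraries 4 were in batch 1, 8 in batch 2 and 4 in batch 3, and the AM608 libraries were divided in the same way. The RCD libraries were split between batch 2, with 4 of them, and batch 4, which had the other 8 and no library of obese mice.

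Glutamate tRNAs carry glutamate to the ribosome and read its codons through the anticodon, which lies in a loop at the far end of the folded molecule. A mature tRNA folds into an acceptor stem, a D arm, an anticodon arm and a T arm, and the sequence CCA is added to its 3' end by an enzyme after transcription. Endonucleases such as angiogenin cut the anticodon loop under stress and release a 5' and a 3' piece, and shorter fragments arise from cuts in the D and T loops. Brain tissue is known to hold abundant glutamate tRNA fragments that keep the 5' end. Fragments that keep neither mature end are called internal.

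The 96 fragments fell into 6 classes by where they start and end in the mature tRNA, counted from 1 at its 5' end. On this count the anticodon occupies positions 34 to 36, the last encoded base is 72, and the added CCA follows it. The 31 near-5' fragments started at positions 2 to 5 and held 86.4% of the counts of the 96. The 34 D-arm fragments, which began at positions 8 to 21, held 6.7%. The 20 anticodon-loop 3' fragments started at 35 to 41, ran to the CCA and held 4.98%, while a single internal fragment (36 to 54) with 404 counts started there and stopped short of the 3' end. The 4 T-loop 3' fragments began at 54 and held 1.02%, and 6 long fragments of 49 to 50 nt held 0.833%.

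The sequences that follow show the classes, and all are read from the deposited table with the anticodon and the CCA in capitals, as far as the fragment holds them. They are GluTTC fragments of the near-5', D-arm, anticodon-loop 3', T-loop 3' and long classes, in that order.
tRF-34-KF9MVH7P59N3K5: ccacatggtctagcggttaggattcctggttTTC
tRF-24-MN1E8Y7ZFV: cggttaggattcctggttTTCacc
tRF-35-1HPSR9O9337KB6: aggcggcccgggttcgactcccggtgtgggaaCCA
tRF-22-WD8S746D2: tcgactcccggtgtgggaaCCA
tRF-49-Y7RZ81JJ6RRNLIK898HR: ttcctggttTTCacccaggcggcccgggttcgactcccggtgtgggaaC

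**Figure D1:**
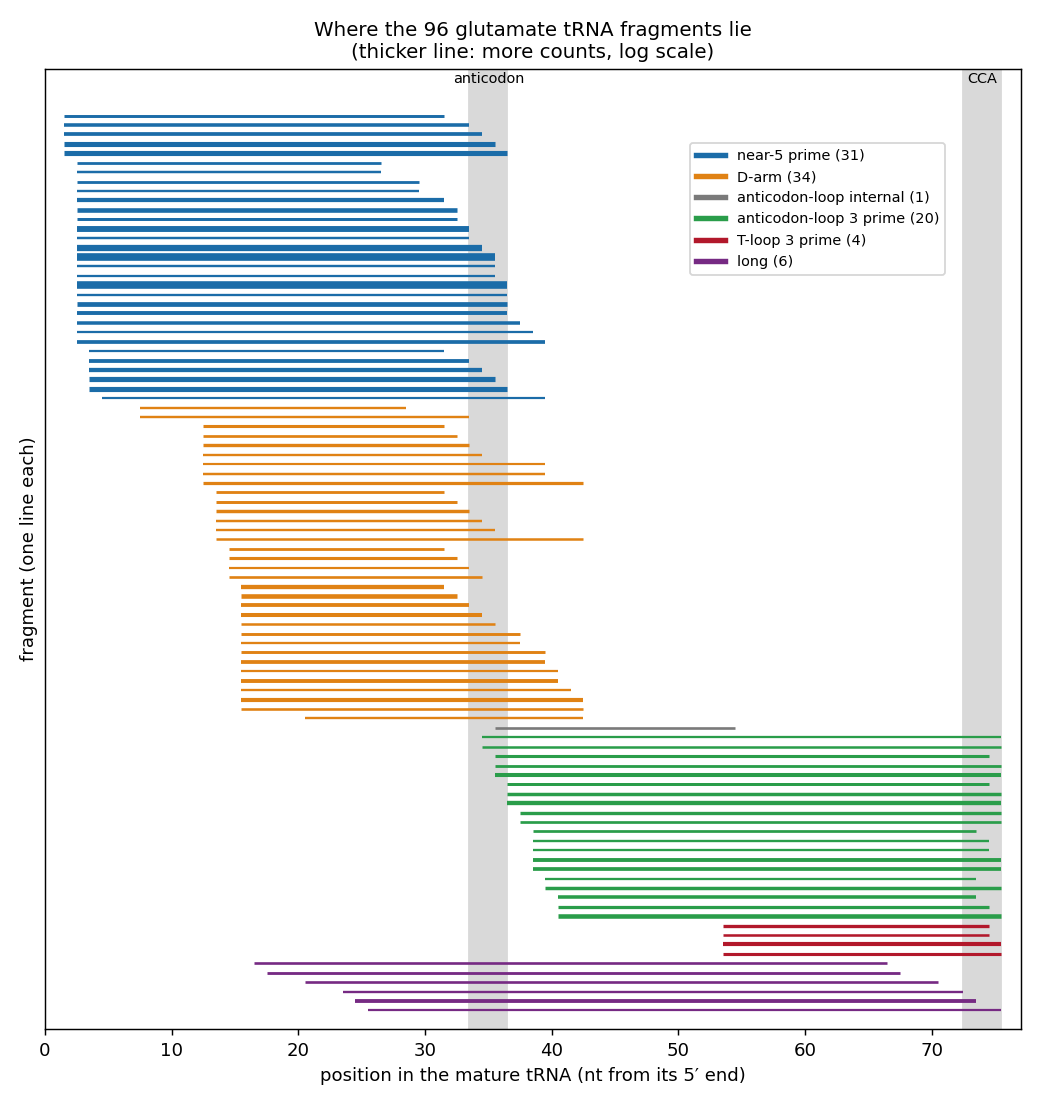
Position of each of the 96 fragments in the mature glutamate tRNA, as 1 line per fragment from its first to its last nucleotide, coloured by class, with thicker lines for more counts on a log scale. Grey bands mark the anticodon and the CCA end. Of the near-5' fragments 20 of 31 start at position 3, 31 of 34 D-arm fragments start at 13 to 16, and 15 of the 26 fragments that reach the CCA hold all of it.

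Few of the 96 fragments carried most of the counts. The 10 most abundant held 82% of the 412652 counts of the set, the median fragment had 568 counts, and the totals spanned 573-fold. GluCTC fragments numbered 50 and held 89.8% of the counts, 37 GluTTC fragments held 7.9%, and 9 that match both held 2.3%. By type, 70 i-tRFs held 93.6%, 21 3'-tRFs held 5.53% and 5 of the 3'-half type held 0.922%.

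Most of the set ended in the anticodon loop. In all, 39 i-tRFs ended at positions 32 to 38 and held 88.2% of the counts. Among near-5' counts 89.8% started at position 3, 4.71% at position 2 and 5.42% at position 4, and 41.1% ended at position 35 and 41% at position 36. D-arm counts started mostly at position 16 (66.1%), then at 13 (13.2%) and 14 (11.0%), and ended at 31 to 34 (61.5%) or at 39 to 42 (32.2%). These fragments are not independent measurements, since 80 of the 96 lie whole inside another of them and 65 lie inside a counted glutamate 5' fragment.

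Fragments of the same span but different sequence differed in level to very different degrees. At positions 3 to 36 the GluTTC fragment tRF-34-KF9MVH7P59N3K5 had 4560 counts against 1713 for its C6T variant tRF-34-KL9MVH7P59N3K5, where C6T names the base of the first, the position in the tRNA and the base of the variant. The same C6T pair was closer at shorter spans, with 487 against 288 counts at positions 3 to 29 (1.69-fold) and 467 against 329 at 3 to 26 (1.42-fold). At the 3' end, tRF-22-WD8S746D2 had 2288 counts against 692 for its G66A variant tRF-22-WD8SS46D2. Other pairs were nearly level, such as tRF-36-KKM1M3WD8S746DD with 288 counts against 268 for tRF-36-LSM1M3WE8SSP6DD (39 to 74, 1.07-fold). Single-base pairs that differ at another position are not shown. Those shown are the C6T pair and the G66A pair with the most counts:
tRF-34-KF9MVH7P59N3K5: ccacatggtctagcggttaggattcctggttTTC
tRF-34-KL9MVH7P59N3K5: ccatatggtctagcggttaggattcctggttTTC
tRF-22-WD8S746D2: tcgactcccggtgtgggaaCCA
tRF-22-WD8SS46D2: tcgactcccggtatgggaaCCA

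The balance between these copies varied less across libraries than the levels did. In the 43 libraries with counts of either, the T6 copy made up 16.3% to 50% of the GluTTC fragment 3 to 36, with a median of 27.2%. GluTTC made up 1.59% to 5.1% of near-5' counts, with a median of 2.55%. The table names 17 tRNA loci for the 96 fragments, and 0 of them overlap the 20 nuclear glutamate tRNA genes (12 CTC, 8 TTC) of RefSeq on GRCm38.p6. Of the 17, 1 lies beyond the last RefSeq gene of the mouse chromosome of that name. The loci are therefore not read as mouse genes, and the mouse genes behind the fragments and their base variants are not known. Fragments are given by their position in the tRNA and not by genome coordinates.

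Depth was modest for tRFs, at 38619 to 221358 counts per library, and the 96 fragments took 1.06% to 16.0% of them (median 7.93%). Levels are given as CPM (tRF counts scaled to the library's tRF total), scaled by TMM, a factor that equalises most tRFs between libraries. miR-132, the target of the AM132 oligonucleotide, had a lowest, median and highest level of 62.3, 708 and 1220 CPM of the miRNA table in AM132 libraries, 639, 921 and 1240 CPM in AM608 libraries and 764, 988 and 1620 CPM in RCD libraries, and these ranges overlap. All 4 brain miRNA markers were detected in every group, with a summed median of 206000, 213000 and 269000 CPM in AM132, AM608 and RCD libraries. Pituitary miRNAs summed to medians of 72400, 69200 and 31100 CPM in the same order, with 0 of 7 at 0, and muscle miRNAs reached 3070 CPM in AM132 6 against 135 to 493 CPM in RCD libraries. The part of these markers in the results below was not tested. These are bulk libraries, so fewer cells and less RNA per cell cannot be told apart. The labels number the samples of a group and say no more of the animals, so p-values measure the spread between libraries.

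On the TMM scale, position in the tRNA went with how much a fragment varied between libraries. D-arm fragments were steady on this scale. Their summed level had a lowest, median and highest value of 4960, 6370 and 8940 CPM in AM132 libraries. These values were 4000, 5970 and 8380 CPM in AM608 libraries, and 4380, 6700 and 11100 CPM in RCD libraries. Near-5' fragments spanned more than their D-arm relatives in each group, with 1250, 61900 and 219000 CPM in AM132, 1360, 98600 and 223000 CPM in AM608, and 1520, 17300 and 106000 CPM in RCD. The groups overlap widely in both classes. The highest library exceeded the lowest by 178-fold for the near-5' sum and by 2.77-fold for the D-arm sum. These spans depend on the scale. The 96 fragments came to 238000 CPM and 15.6% of tRF counts in AM608 13, but to 22300 CPM and 5.0% in RCD 7. Spans of raw shares were not compared, so the order of the classes is given for the TMM scale only.

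On the same scale the 3' classes lay between these. Of raw tRF counts, T-loop 3' fragments held 40 of 174367 in AM132 16 and 254 of 53304 in RCD 4. Anticodon-loop 3' fragments held 139 of 85724 in AM608 8 and 1610 of 221358 in AM608 13. The anticodon-loop 3' sum had a lowest, median and highest value of 1460, 4120 and 7320 CPM in AM132, 1690, 5620 and 11200 CPM in AM608, and 1080, 2420 and 8100 CPM in RCD, and it spanned 10.4-fold. The T-loop 3' sum had 354, 820 and 1680 CPM in AM132, 430, 841 and 1720 CPM in AM608, and 743, 1340 and 2400 CPM in RCD, and it spanned 6.78-fold. The long fragments summed to 77.3, 872 and 1940 CPM in AM132, 6.92, 335 and 2030 CPM in AM608, and 74.4, 1150 and 1650 CPM in RCD. Their span was 293-fold, and the groups overlap in each of these classes.

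**Figure D2:**
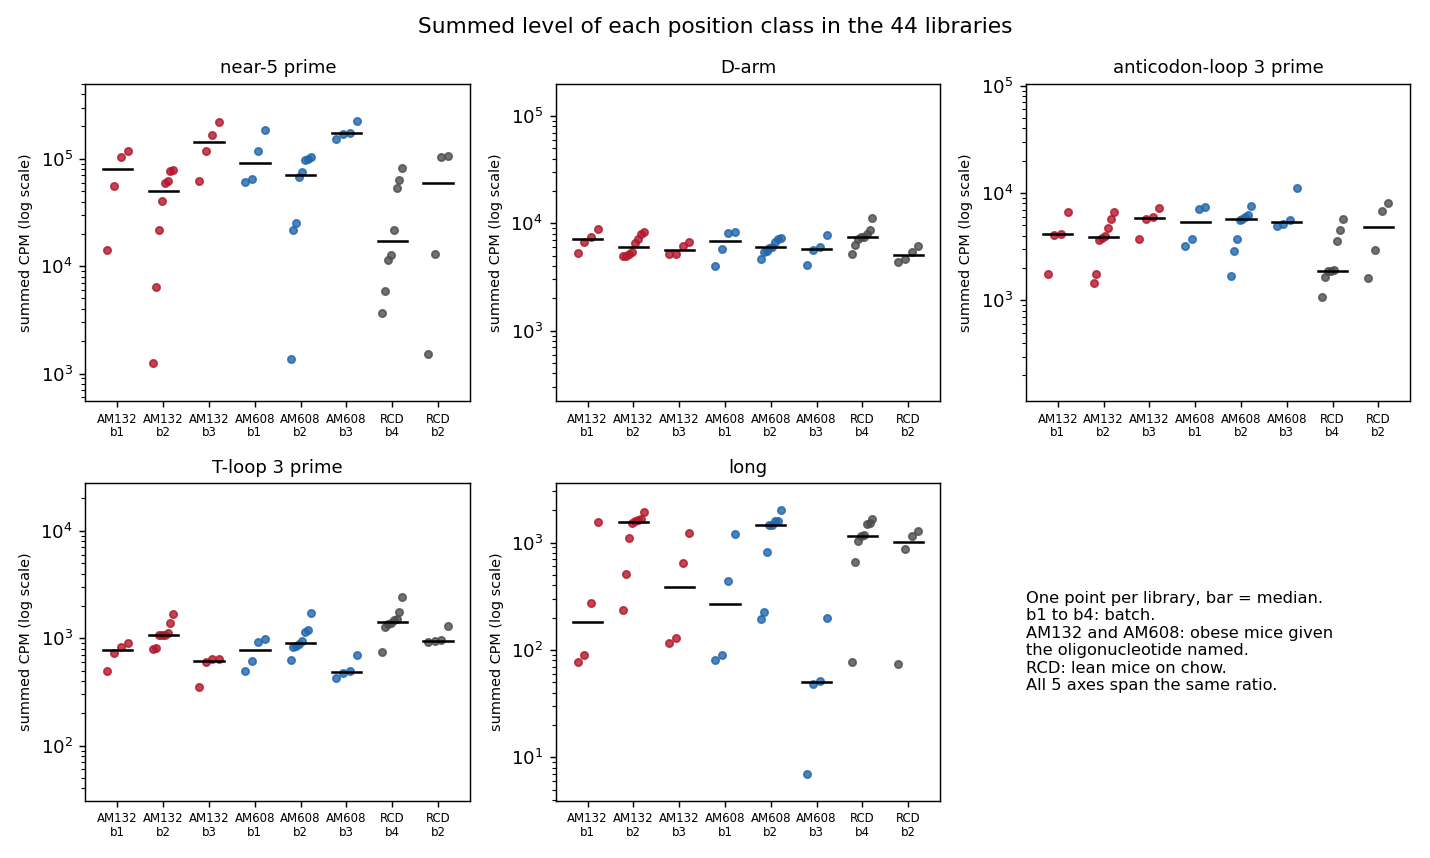
Summed CPM (log axis) of 5 position classes in each of the 44 libraries, by group and batch (b1 to b4), with a bar at the median; all 5 axes span the same ratio. D-arm sums stay between 4000 and 11100 CPM, near-5' sums run from 1250 to 223000 CPM, and long fragments from 6.92 to 2030 CPM.

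Among single fragments too, the near-5' and long classes varied most on the TMM scale. The SD of log2 CPM within group and batch was taken after adding 20 CPM to each value, which shrinks it for fragments at low levels. Its median was 0.51 for D-arm fragments, 0.45 for T-loop 3', 0.84 for anticodon-loop 3', 1.16 for long and 1.17 for near-5' fragments. The D-arm fragment tRF-17-9N1EWJM ran from 466 to 1560 CPM over the 44 libraries (3.35-fold). Of the D-arm fragments 31 of 34 were counted in all 44 libraries, against 11 of 31 near-5', 12 of 20 anticodon-loop 3', 4 of 4 T-loop 3' and 1 of 6 long fragments.

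In 4 libraries, spread over all 3 groups and all in batch 2, the fragments were scarce, with the lowest shares of tRF counts. These 4 were picked after their values were seen, and near-5' counts are 86.4% of the set. Low near-5' sums therefore follow in part from the choice. RCD 4 and RCD 5 of batch 4 had near-5' sums of 3650 and 5880 CPM, below the 6360 CPM of AM132 8. The 96 made up 1.75% of tRF counts in AM132 8, 1.29% in AM132 12, 1.06% in AM608 8 and 1.35% in RCD 10, with Wilson 95% intervals of 1.66 to 1.85, 1.22 to 1.37, 0.989 to 1.1 and 1.27 to 1.44. Their near-5' sums were 1250 to 6360 CPM against a median of 71400 CPM (3650 to 223000) in the other 40, whereas their D-arm sums of 4380 to 5220 CPM lay within the 4000 to 11100 CPM of the others. Long fragments were not low there, at 1100 to 2030 CPM against a median of 731 CPM in the other 40. The start at position 3 was also less dominant, with 79.7% of near-5' counts in AM132 8, 63.2% in AM132 12, 58.9% in AM608 8 and 53.2% in RCD 10, against 83.2% to 92.1% in the other 40. Intervals cover counting error only, since without molecular identifiers several reads can stem from 1 molecule.

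Near-5' levels moved with fragment length in the rest of the table. Among tRFs of all other amino acids, the share of counts at 31 to 36 nt had a lowest, median and highest value of 4.51%, 39.2% and 71.4% in AM132, 5.33%, 49.2% and 73% in AM608, and 11.7%, 28.4% and 59.1% in RCD. For batches 1, 2 and 3 the median over AM132 and AM608 was 58%, 32.9% and 68.2%. Over the same libraries the near-5' sum had medians of 84000, 60800 and 169000 CPM for batches 1, 2 and 3. The same 4 libraries had 4.51% to 15.0% at 31 to 36 nt and 54.8% to 72.9% at 37 nt or more, where the other 40 had medians of 44.1% and 27.9%. The part of fragment length in the near-5' levels was not tested.

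The 3' end was mostly complete. Anticodon-loop 3' counts ended with the full CCA at 78.4%, with CC at 12.6% and with the first C alone at 8.95%, and T-loop 3' counts with the full CCA at 70.8% and CC at 29.2%. The share of anticodon-loop 3' counts that kept the first C alone had a lowest, median and highest value of 3.94%, 5.7% and 10.7% in batch 1, 1.14%, 5.33% and 9.84% in batch 2 and 5.74%, 13.7% and 23.1% in batch 3. In batch 3 it was 5.74% to 15.8% in AM132 and 11.6% to 23.1% in AM608 libraries, which overlap.

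The first comparison asks whether the anti-miR-132 oligonucleotide changed these fragments in obese mice. No fragment of the set passed the test between AM132 and AM608, with batch in the fit: 58 of the 96 passed the filter on low counts, and 0 were called by edgeR's quasi-likelihood test at an adjusted p under 0.05, where 0% of all 494 tested tRFs were called. DESeq2 also called 0. At an unadjusted p under 0.05 there were 2 of the 58, beside 33 of the 494 (6.68%). The median log2 fold change was -0.10 for the 58 and 0.01 for all tested tRFs.

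The abundant fragments had overlapping levels. tRF-34-KF9MVH7P59N3K5, the most abundant GluTTC fragment, had a lowest, median and highest level of 10.7, 889 and 3350 CPM in AM132 and 0, 1280 and 3680 CPM in AM608. Its log2 fold change was -0.52 ± 0.45 (SE; edgeR adjusted p = 0.727), and 9 of 16 AM132 libraries lay below the AM608 mean of their batch. The difference was not larger than the spread between libraries. Other abundant fragments were at 0.15 ± 0.13 (tRF-17-9N1EWJM), 0.00 ± 0.28 (tRF-39-0VL8K87SIRMM12E2), 0.16 ± 0.18 (tRF-22-WD8S746D2) and 0.10 ± 0.23 (tRF-40-2S3HPSR95933JKB6).

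Near-5' fragments nevertheless lay on the same side of 0. The fold change was below 0 for 21 of 21 tested, with a median of -0.51, which was -0.55 with RLE scaling, -0.61 with scaling over the miRNA and tRF tables together, and -0.44 without the 3 obese-mouse libraries where the fragments were scarce. Within batches it was below 0 for 20 of 20 in batch 1 (median -0.59), 18 of 18 in batch 2 (-0.54) and 27 of 30 in batch 3 (-0.36). Single libraries were less uniform. Depending on the fragment, 6 to 11 of the 16 AM132 libraries lay below the AM608 mean of their batch. These fragments overlap in sequence and share libraries, so they count as few independent values, and 0 of them passed. Glutamate fragments that keep the 5' end, of which 35 were tested, had a median of 0.37 and 0 calls.

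The other classes were closer to 0 or few. D-arm fragments had a median log2 fold change of 0.09 with 13 of 18 above 0, which became 9 of 18 with scaling over both tables. Anticodon-loop 3' fragments had a median of -0.19 (4 of 13 above 0), T-loop 3' fragments 0.11 (2 of 3) and long fragments 0.69 (3 of 3). Of the 5 of smallest p, 3 were GluTTC 3' fragments that start at position 40 or 41. tRF-36-JJ6RRNLIK898O1B (40 to 75) had a lowest, median and highest level of 40.9, 197 and 407 CPM in AM132 and 85.1, 332 and 817 CPM in AM608. The log2 fold change of this fragment was -0.66 ± 0.26 (edgeR p = 0.015, adjusted p = 0.642), lower in 13 of 16 libraries. tRF-33-1HPSR9O9337KR (41 to 73) ran from 27.9 to 637 CPM in AM132 and from 29.8 to 1720 CPM in AM608, at -0.75 ± 0.35 (edgeR p = 0.0395). The remaining values of this kind were -0.44 ± 0.22 for tRF-35-1HPSR9O9337KB6, 0.31 ± 0.16 for the D-arm fragment tRF-21-V47P596VE and -0.67 ± 0.35 for tRF-30-N3R718YKISQI. The groups overlap for each of the 5.

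The second question is how obese mice given an oligonucleotide differ from lean mice, and only batch 2 holds libraries of both. Diet and injection are not separated there. Between AM608 and RCD, 64 of the 96 were tested and 0 were called by edgeR, as by DESeq2, where 0% of all 575 tested tRFs were called. At an unadjusted p under 0.05 there were 0 of the 64 and 28 of the 575 (4.87%). The median log2 fold change was 0.04 for the 64, with 37 above 0, and 0.09 for all tested; with RLE scaling these became -0.09, with 23 above 0, and -0.03. tRF-34-KF9MVH7P59N3K5 had 0, 990 and 1630 CPM (lowest, median, highest) in AM608 libraries of batch 2, against 137, 21.8, 1310 and 1390 CPM in the 4 RCD libraries, a log2 fold change of 0.14 ± 1.00. The RCD libraries lay within the AM608 range.

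The smallest p against RCD belonged to tRF-24-MN1E8Y7ZFV, a GluTTC D-arm fragment from 16 to 39. It had a lowest, median and highest level of 206, 261 and 411 CPM in AM608 libraries of batch 2, against 274, 120, 186 and 230 CPM in RCD libraries, a log2 fold change of 0.41 ± 0.21 (edgeR p = 0.0663, adjusted p = 0.992). The other 4 by smallest p were tRF-16-9N1EWJ0 at 0.38 ± 0.26, tRF-19-2S3HPS2E at -0.43 ± 0.31, tRF-50-8Y7Z2R1HPSR9O9337KB6 at 1.04 ± 0.77 and tRF-25-MN1E8Y7Z2R at 0.31. With single libraries left out, tRF-50-8Y7Z2R1HPSR9O9337KB6 ran from 0.54 (without RCD 12) to 1.71 (without RCD 10), and tRF-25-MN1E8Y7Z2R from 0.14 (without RCD 10) to 0.49 (without RCD 9). tRF-24-MN1E8Y7ZFV was at 0.23 without RCD 10, tRF-16-9N1EWJ0 at 0.25 without RCD 9, and tRF-19-2S3HPS2E at -0.65 without AM608 12.

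Between AM132 and RCD in batch 2, which uses the same 4 RCD libraries, 0 of 64 were called by edgeR, as by DESeq2, beside 0% of 575. Unadjusted p was under 0.05 for 2 of the 64 and for 21 of the 575 (3.65%). The median log2 fold change was -0.19 for the 64, with 25 above 0, and 0.06 for all tested; with RLE scaling these became -0.43, with 19 above 0, and -0.15. Near-5' fragments had a median of -0.43 with 0 of 21 above 0, D-arm fragments 0.31 with 16 of 19 above 0 (12 of 19 with RLE scaling), and anticodon-loop 3' fragments -0.24 with 1 of 15 above 0.

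The pair below 0.05 were of different kinds. tRF-50-8Y7Z2R1HPSR9O9337KB6, a long GluTTC fragment from 26 to 75, had a lowest, median and highest level of 10.2, 130 and 201 CPM in AM132 libraries of batch 2, against 27.4, 65.4, 29.7 and 0 CPM in RCD libraries (log2 fold change 1.96 ± 0.75, edgeR p = 0.0164, adjusted p = 0.994). The internal fragment from 36 to 54, tRF-19-2S3HPS2E, is assigned to tRNAs of both anticodons, although the GluTTC fragment tRF-40-2R1HPSR9O9337KB6 differs from it there. tRF-19-2S3HPS2E had 45.4, 116 and 163 CPM in AM132, against 219, 207, 148 and 223 CPM in RCD (-0.74 ± 0.31, edgeR p = 0.0244, adjusted p = 0.994), lower in 8 of 8 libraries. The groups overlap for both members of the pair. The other 3 by smallest p were tRF-17-73V2Y8K at 0.51 ± 0.28, tRF-25-MN1E8Y7Z2R at 0.44 ± 0.24 and tRF-33-1HPSR9O9337KR at -1.09 ± 0.61. Leaving out RCD 10 gave 0.25 for tRF-25-MN1E8Y7Z2R, and leaving out RCD 11 gave -0.68 for tRF-33-1HPSR9O9337KR.
tRF-19-2S3HPS2E: Caccgccgcggcccgggtt

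**Figure D3:**
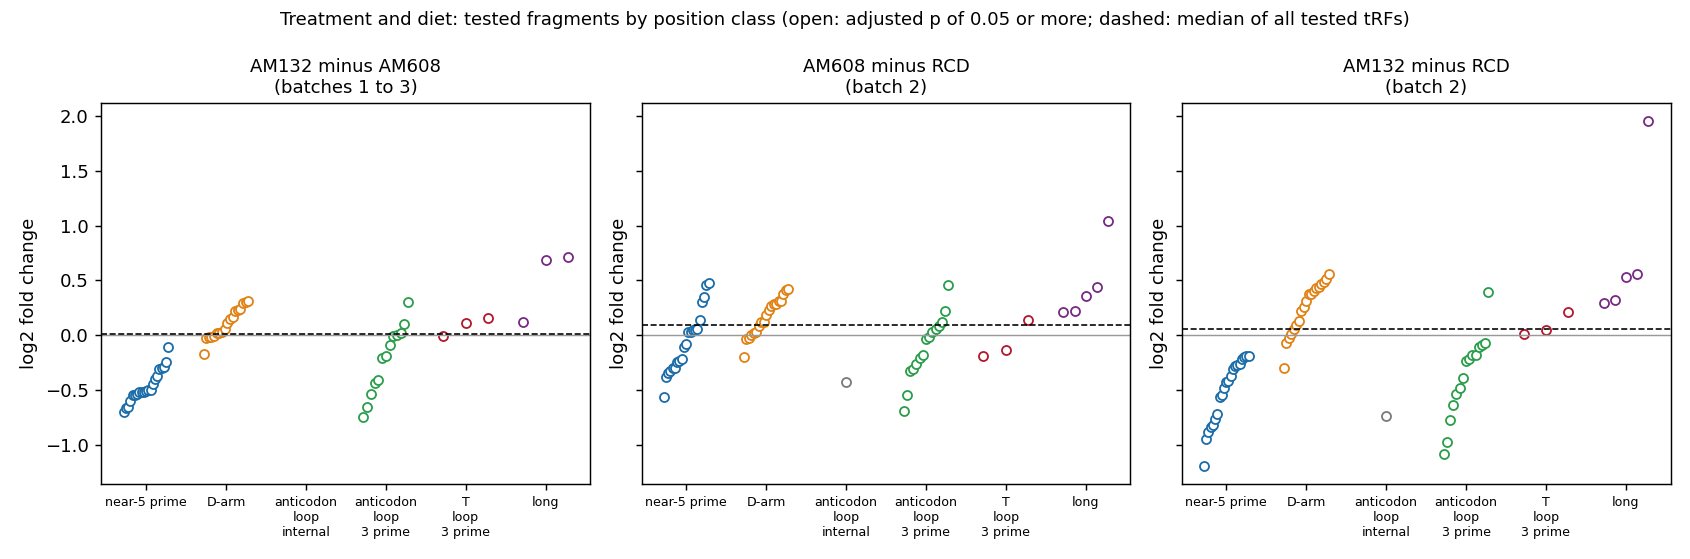
Log2 fold change of each tested fragment by position class for AM132 minus AM608 (batches 1 to 3), AM608 minus RCD and AM132 minus RCD (batch 2); open circles mark an adjusted p of 0.05 or more, and the dashed line is the median of all tested tRFs. All circles are open, and near-5' fragments lie below 0 in both panels of AM132.

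Batch, by contrast, went with large differences. Of the 96, 74 were tested over the 32 AM132 and AM608 libraries with treatment in the fit, and 34 (45.9%) differed among batches 1 to 3 at an edgeR adjusted p under 0.05, near the 47.5% of all 628 tested tRFs (21.7% above and 25.8% below 0 in the coefficient of batch 3 over batch 2). The calls divided into 23 with a batch 3 coefficient above batch 2 and 11 below it, into 33 and 10 with RLE scaling, and into 38 and 7 with scaling over both tables. The calls of the whole table also moved upward, with 201 higher and 133 lower under RLE scaling and 250 and 104 with scaling over both tables, against 136 and 162 as reported. That test asks for any difference among the 3 batches. In batch 3 against batch 2 taken alone, a contrast added after the data were seen, 41 of the 74 (55.4%) were called, 28 higher and 13 lower in batch 3, beside 54.1% of all tested tRFs, 24.7% higher and 29.5% lower. The share called is thus close to that of the whole table, and the classes differ in direction. The median of all tested tRFs was -0.08 on the log2 scale, but 0.15 with RLE scaling and 0.42 with scaling over both tables, so fold changes below are read against that shift.

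Near-5' fragments were higher in batch 3 than in batch 2. All 24 tested had a fold change above 0 (median 1.66), 19 passed the test over 3 batches and 23 passed batch 3 against batch 2, and 24 of 24 stayed above 0 with RLE scaling, with scaling over both tables, and without the scarce libraries (median 1.34). A near-5' fragment could pass the filter on low counts through batch 3 alone, so the 24 of 24 may follow in part from the filter. tRF-34-KF9MVH7P59N3K5 had a lowest, median and highest level of 93.5, 697 and 3680 CPM in batch 1, 0, 873 and 1630 CPM in batch 2, and 868, 1620 and 3350 CPM in batch 3. Batch 3 minus batch 2 was 1.52 ± 0.53 (edgeR adjusted p = 0.0176), and the batches overlap.

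Fold changes varied within the class. tRF-29-389MV47P59I8 (3 to 31) had 120, 501 and 1160 CPM in batch 1, 21.3, 281 and 602 CPM in batch 2 and 293, 1330 and 2440 CPM in batch 3 (lowest, median, highest), at 2.22 ± 0.41 on the log2 scale (edgeR adjusted p = 5.52e-05). The GluTTC fragment tRF-30-KF9MVH7P59N3 (3 to 32) had 13.4, 105 and 499 CPM in batch 1, 0, 50.3 and 156 CPM in batch 2 and 87.8, 266 and 505 CPM in batch 3, at 2.28 ± 0.45. The batches overlap for both. Similar values were 2.24 ± 0.51 for tRF-31-389MV47P596VE, 2.06 ± 0.41 for tRF-30-N3R718YKISQI, 2.06 ± 0.47 for tRF-30-389MV47P596V, 2.03 ± 0.43 for tRF-31-N3R718YKISQID and 1.89 ± 0.39 for tRF-27-KF9MVH7P593. tRF-32-KY7343RX6NMH3 (2 to 33), which starts earlier, was at 1.27 ± 0.29. The shortest near-5' fragments tested, tRF-24-KF9MVH7PIE and tRF-24-KL9MVH7PIE, were at 1.58 ± 0.45 and 1.70 ± 0.43. The smallest in the class was tRF-30-KY7343RX6NMH, a fragment from 2 to 31, at 0.11 ± 0.26.

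The 4 T-loop 3' fragments were lower in batch 3. Each passed both tests, with a median of -0.99, and each stayed below 0 with RLE scaling (3 called) and with scaling over both tables (1 called). tRF-21-WD8S746DD (54 to 74) had a lowest, median and highest level of 90, 143 and 164 CPM in batch 1, 151, 257 and 366 CPM in batch 2 and 57.9, 106 and 169 CPM in batch 3. Its batch 3 minus batch 2 value was -1.27 ± 0.20 (edgeR adjusted p = 6.26e-06). tRF-22-WD8S746D2 had 250, 410 and 566 CPM in batch 1, 235, 545 and 1040 CPM in batch 2 and 195, 275 and 396 CPM in batch 3, at -1.01 ± 0.24. Its G66A variant tRF-22-WD8SS46D2 was at -0.96 ± 0.26. Batches 2 and 3 overlap in the lower part of batch 2.

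The internal fragment and the long fragments were also lower in batch 3. tRF-19-2S3HPS2E had 19.3, 43.3 and 107 CPM in batch 1, 45.4, 122 and 281 CPM in batch 2 and 29.4, 40.5 and 68.3 CPM in batch 3 (lowest, median, highest), at -1.75 ± 0.29 (edgeR adjusted p = 1.31e-05). All 5 long fragments tested were below 0 under each of the 3 scalings, with a median of -2.15, and 4 passed the test over 3 batches. Long fragments could pass the filter on low counts through batch 2 alone. tRF-50-7P59N3Z6KPQJ3KYU4RRW had medians of 25.2, 208 and 13.3 CPM in batches 1, 2 and 3, at -2.15 ± 0.64, and the GluTTC fragment from 21 to 70 was at -1.89 ± 0.33. tRF-49-Y7RZ81JJ6RRNLIK898HR (25 to 73) had 10, 60.5 and 574 CPM in batch 1, 26.7, 736 and 1030 CPM in batch 2 and 0, 18.9 and 654 CPM in batch 3, at -2.49 ± 0.82. tRF-50-RX6N38Z90668K87SERM4 was at 0 in all 4 AM608 libraries of batch 3 and at 0 to 97.5 CPM in the 4 AM132 libraries of that batch.

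Anticodon-loop 3' fragments split. Of 17 tested, 12 were above 0 in batch 3 against batch 2, with a median of 0.52, and 4 passed the test over 3 batches, 2 in each direction. The split depended on the setting, with 7 higher and 2 lower under RLE scaling, 8 and 2 with scaling over both tables, and 5 and 2 in batch 3 against batch 2 alone. Both that were higher over 3 batches end at 73, with the first C alone: tRF-35-KKM1M3WD8S746D (39 to 73) had a lowest, median and highest level of 44.7, 62.1 and 230 CPM in batch 1, 0, 49.6 and 162 CPM in batch 2 and 117, 217 and 485 CPM in batch 3, at 2.29 ± 0.42 (edgeR adjusted p = 4.75e-05), and tRF-33-1HPSR9O9337KR (41 to 73) was at 1.63 ± 0.41. The 3 further fragments called higher in batch 3 against batch 2 alone, tRF-36-JJ6RRNLIK898O1B, tRF-38-KPQJ3KYU4RRWRBD2 and tRF-37-KKM1M3WD8S746D2, end at 75, at 0.79 ± 0.30, 1.03 ± 0.39 and 0.98 ± 0.41. Both that were lower are of the 3'-half type and start at 36 inside the anticodon: tRF-39-2S3HPSR95933JK0V had medians of 80.9, 206 and 107 CPM in batches 1, 2 and 3 (-1.15 ± 0.25), and tRF-40-2R1HPSR9O9337KB6 had 63.3, 143 and 114 CPM (-0.58 ± 0.25). tRF-40-2S3HPSR95933JKB6, the most abundant 3'-half, was at 0.16 ± 0.29, and tRF-39-0VL8K87SIRMM12E2 at 0.02 ± 0.36.
tRF-35-KKM1M3WD8S746D: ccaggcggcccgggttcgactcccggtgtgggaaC
tRF-39-2S3HPSR95933JK0V: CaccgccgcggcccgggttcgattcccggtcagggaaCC
tRF-40-2R1HPSR9O9337KB6: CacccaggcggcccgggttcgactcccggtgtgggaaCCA

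D-arm fragments had small fold changes. Of 23 tested, 2 passed the test over 3 batches, tRF-27-MN1E8Y7Z2RH (medians of 112, 47.9 and 81.4 CPM in batches 1, 2 and 3) and tRF-24-MN1E8Y7ZFV (399, 260 and 315 CPM). The direction of the class in batch 3 against batch 2 depended on the scaling, with 5 of 23 above 0 and a median of -0.15 as reported, 14 of 23 and 0.09 with RLE scaling, and 22 of 23 and 0.34 with scaling over both tables. tRF-17-9N1EWJM, the most abundant of the class, had medians of 1050, 803 and 766 CPM in batches 1, 2 and 3.

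**Figure D4:**
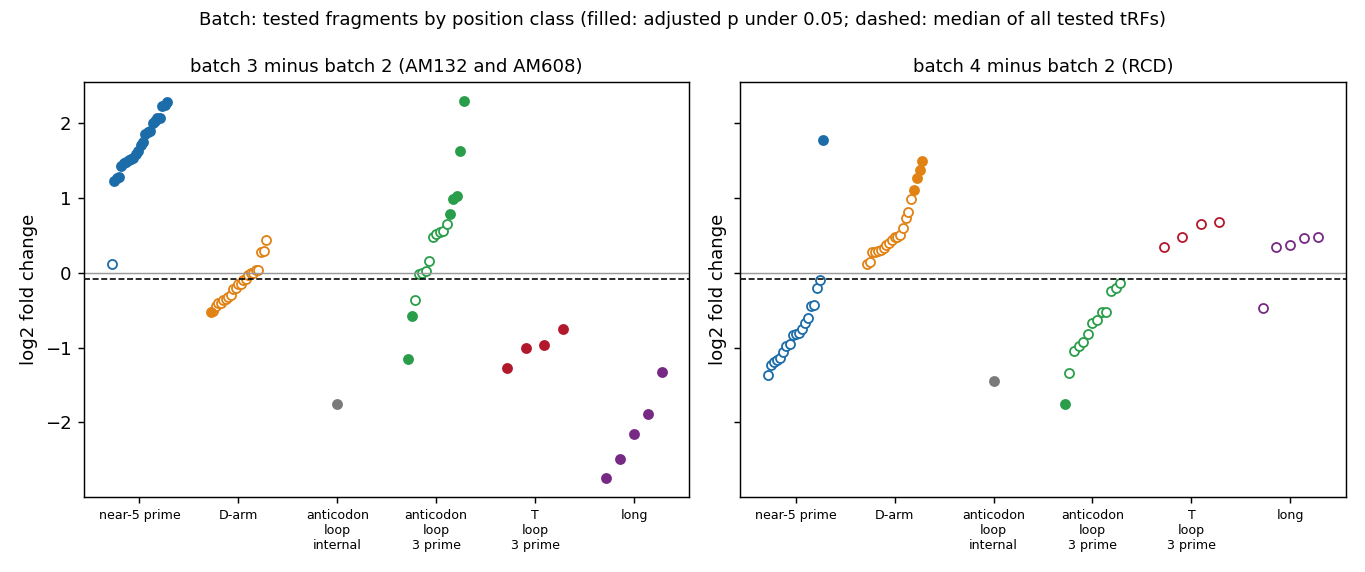
Log2 fold change of each tested fragment by position class for batch 3 minus batch 2 over AM132 and AM608 libraries (left) and batch 4 minus batch 2 over RCD libraries (right); filled circles have an adjusted p under 0.05 and the dashed line is the median of all tested tRFs. In batch 3, near-5' fragments lie above 0 and T-loop 3' and long fragments below, while in batch 4 D-arm fragments lie above 0 and anticodon-loop 3' fragments below.

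Fragment length over other amino acids moved with the same batches, since the median share at 37 nt or more came to 14.9%, 44.9% and 5.31% for batches 1, 2 and 3. Its part in the batch differences was not tested. With AM132 libraries alone 8 of 71 fragments tested were called, beside 28 higher and 86 lower of all 635 tested tRFs, and with AM608 libraries alone 23 of 77, beside 73 higher and 135 lower of 640. Near-5' fragments lay above 0 for 21 of 22 tested in AM132 (2 called) and for 28 of 28 in AM608 (13 called), and T-loop 3' fragments below 0 for 4 of 4 in each (3 called in AM132 and 1 in AM608). Long fragments had a median of -1.31 with 1 of 6 called in AM132 and of -4.66 with 4 of 4 called in AM608. In these fits too a fragment could pass the filter through the batch where it was high. The counts above and below 0 may follow in part from that.

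Lean mice of batch 4 and batch 2 differed in 7 of the 63 fragments tested (5 higher and 2 lower in batch 4; edgeR adjusted p under 0.05), beside 9.8% of all 510 tested tRFs, 4.51% higher and 5.29% lower. Batch 4 held RCD libraries alone, and whether its mice differed from those of batch 2 in anything but batch cannot be told apart. tRF-24-MN1E8Y7ZFV had 412, 538, 505, 587, 598, 567, 448 and 715 CPM in RCD libraries of batch 4, against 274, 120, 186 and 230 CPM in those of batch 2. These groups do not overlap, and its log2 fold change was 1.49 ± 0.28 (edgeR adjusted p = 0.00541). Its AM132 and AM608 medians of 286 and 306 CPM lay between the RCD batches.

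Of the 5 higher fragments, 3 more were D-arm fragments that end at 39 or 40. tRF-25-MN1E8Y7Z2R (16 to 40) had a lowest, median and highest level of 321, 537 and 859 CPM in batch 4, against 342, 153, 208 and 284 CPM in batch 2 (1.27 ± 0.36, edgeR adjusted p = 0.0439). tRF-27-VH7P59N3Z6J (13 to 39) had 67.7, 108 and 159 CPM in batch 4, against 41.1, 21.8, 51.9 and 60.8 CPM in batch 2 (1.37 ± 0.34, edgeR adjusted p = 0.0278), and tRF-24-9N1EWJQ7FV (16 to 39) had 120, 175 and 302 CPM in batch 4, against 110, 76.3, 74.2 and 81.1 CPM in batch 2 (1.11 ± 0.32). Batches do not overlap for these last fragments, and a single library overlaps for tRF-25-MN1E8Y7Z2R. The fifth was tRF-35-94SX73V2Y8L981, the near-5' fragment from 5 to 39, with a median of 99.4 CPM in batch 4, against 54.8, 32.7, 7.42 and 27 CPM in batch 2 (1.77 ± 0.44, edgeR adjusted p = 0.0269), where 1 library of batch 2 overlaps.

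The 2 lower fragments were tRF-19-2S3HPS2E and tRF-33-1HPSR9O9337KR. tRF-19-2S3HPS2E had 25.4, 72.3 and 131 CPM (lowest, median, highest) in batch 4, against 219, 207, 148 and 223 CPM in batch 2, with no overlap (-1.44 ± 0.37, edgeR adjusted p = 0.0286). tRF-33-1HPSR9O9337KR had 33.9, 82.2 and 131 CPM in batch 4, against 68.5, 65.4, 527 and 460 CPM in batch 2 (-1.75 ± 0.49, edgeR adjusted p = 0.0412), with 2 libraries of batch 2 inside the batch 4 range. Of the 7 calls, tRF-24-MN1E8Y7ZFV held with each library left out in turn, while the number called ran from 1 without RCD 12 to 9 without RCD 1. It was 2 without RCD 7 or RCD 11, 4 without RCD 2, RCD 5 or RCD 8, and 3 without RCD 4 or RCD 10, the last of which is 1 of the 4 libraries where the fragments were scarce.

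By class, 21 of 21 tested D-arm fragments lay above 0 (median 0.47; 20 of 21 with RLE scaling) and 13 of 13 anticodon-loop 3' fragments below 0 (median -0.67), against -0.08 for all tested tRFs. A fragment could pass the filter on its counts in a single batch, so the counts by class may follow in part from the filter. Near-5' fragments had a median of -0.82 with 18 of 19 below 0, which became -1.24 with 18 of 19 below 0 without RCD 10, and T-loop 3' fragments 0.56 with 4 of 4 above 0. The near-5' sum was 3650, 17200 and 81800 CPM (lowest, median, highest) in RCD libraries of batch 4, against 13100, 1520, 105000 and 106000 CPM in those of batch 2, which overlap. The share of other amino acids' counts at 31 to 36 nt had a median of 28.4% in batch 4 against 37.1% in batch 2, and its part in these differences was not tested.

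The effect of the oligonucleotide was also compared between batches by an interaction term. Of the 96, 91 were tested and 0 were called by edgeR, as by DESeq2, beside 0.398% of all 754 tested tRFs, and the unadjusted p was under 0.05 for 2 of the 91 and 45 of the 754 (5.97%). The pair were tRF-24-MN1E8Y7ZFV (edgeR p = 0.0371, adjusted p = 0.701), with medians of 445 CPM in AM132 and 331 CPM in AM608 of batch 1, 254 CPM in AM132 and 261 CPM in AM608 of batch 2, and 295 CPM in AM132 and 350 CPM in AM608 of batch 3, and tRF-49-Y7RZ81JJ6RRNLIK898HR (edgeR p = 0.0464, adjusted p = 0.805). This long fragment had medians of 55.2 CPM in AM132 and 84.9 CPM in AM608 of batch 1, 626 CPM in AM132 and 806 CPM in AM608 of batch 2, and 168 CPM in AM132 and 7.68 CPM in AM608 of batch 3. The unadjusted p of the next was 0.087 for tRF-19-2S3HPS2E, 0.0986 for tRF-50-RX6N38Z90668K87SERM4 and 0.12 for tRF-50-8Y7Z2R1HPSR9O9337KB6, by the same edgeR test.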

How the data were processed

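The authors deposited raw read counts per tRF and per mature miRNA, with no normalisation, in 1 column per library. FastQC is named, per the submitters' processing notes; trimming, alignment, tRF calling and genome build are not given in the sources used here. The 44 columns of either table each carry the group and number of 1 labelled sample. Fragment type, anticodon and position come from the deposited table. How reads shared by near-identical tRNAs were assigned is not stated, so levels of such copies are uncertain.

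Low tRFs were removed with filterByExpr at a minimum count of 10 and a minimum total of 15. The filter used the groups or batches of each fit, so a tRF could be kept on its counts in a single group or batch. The tRFs kept were TMM-scaled and tested over the whole tRF table by edgeR 4.0.16 quasi-likelihood F tests in R 4.3.3, with Benjamini-Hochberg adjustment at 0.05. Each SE was taken as the size of the log2 fold change over the root of its F value. Sums and shares are described without a test. The fits were also run on simulated counts with known changes. Those counts had the same spread setting for all tRFs and no batch differences beyond the planted changes. They do not show what size of change could be missed in the real libraries. Other settings tried were no filter, a filter at 10 CPM, DESeq2 1.42.0, RLE scaling, scaling over both tables, other sample sets, and each library left out. Tables were handled with pandas 2.3.3 and plotted with matplotlib 3.10.9.

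The fragments, lists and classes were chosen with earlier results of these data known. Named fragments are those past a test (up to 10 per direction; where under 5 pass, the 5 of smallest p), the 3 most abundant of each type, the most abundant of each anticodon label and those at the count limit. tRF-17-9N1EWJM, tRF-27-MN1E8Y7Z2RH, tRF-30-KY7343RX6NMH, the 24-nt near-5' pair, the 36-nt pair from 39 to 74, the 3' fragments called in batch 3 against batch 2 alone and the base variants were named after their values were seen. Some abundant fragments are not reported here. Samples of the same number did not deviate together, so no pairing was used. No library duplicated another, the closest pair (AM608 5 and AM608 6) differing at a chi-square of 4.21 per degree of freedom.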

Additional observations from a re-analysis of the deposited data

Results flagged for a closer look

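Among 120 sets of 4 to 10 libraries from the same group and batch, 10 had a library that stood apart from the rest by Dixon's test. For independent sets of normally spread values, chance alone would mark about 1 set in 20. The sets here share libraries, class sums were tested beside their own members, and CPM was not put on a log scale. The 10 of 120 are therefore not read as an excess.

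AM608 13 gave 4 of them within AM608 batch 3. Its anticodon-loop 3' sum was 11200 CPM against 4920 to 5580 CPM in the other 3, tRF-35-1HPSR9O9337KB6 was at 2440 CPM against 1000 to 1080 CPM, tRF-40-2S3HPSR95933JKB6 at 609 CPM against 368 to 381 CPM, and tRF-34-KF9MVH7P59N3K5 at 2630 CPM against 1530 to 1630 CPM.

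AM132 1 was high in long fragments within AM132 batch 1, with a long sum of 1540 CPM against 77.3 to 273 CPM and tRF-49-Y7RZ81JJ6RRNLIK898HR at 574 CPM against 10 to 91.1 CPM. The T-loop 3' sum was 354 CPM in AM132 16 against 595 to 637 CPM in the rest of AM132 batch 3, and 1300 CPM in RCD 10 against 918 to 953 CPM in the rest of RCD batch 2. tRF-17-9N1EWJM was at 1050 CPM in AM132 13 against 702 to 725 CPM in the rest of AM132 batch 3. tRF-22-WD8S746D2 was at 1480 CPM in RCD 4 against 462 to 906 CPM in the rest of RCD batch 4.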

How the results depend on the processing

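The count of called fragments stayed at 0 for AM132 against AM608, AM608 against RCD and AM132 against RCD under every alternative that was run, with each library left out (0 to 0), and with the replicate number as a block (0). The labels do not say that equal numbers mark paired mice, and same-numbered libraries did not deviate together: 8 of 16 AM132 and AM608 pairs had a correlation over 0.1, and 2 of 16 correlated best with their own number. Among batches 1 to 3 the 34 calls became 52 with the filter at 10 CPM and 8 with AM132 libraries alone; the others gave 23 to 46, and leaving out a library gave 32 to 43. For RCD batch 4 against batch 2 the 7 calls became 3 with the filter at 10 CPM and 3 without RCD 10 (added after the data were seen), and leaving out a library gave 1 to 9. For treatment by batch the 0 calls became 1 with no filter, and 0 to 0 with a library left out. The causes were not tested. The difference of the summed level of all 96 between AM132 and AM608 ran from -0.57 to -0.34 on the log2 scale. Of the named fragments past a test, 0 changed direction under these alternatives. At 38619 to 221358 tRF counts per library, fragments near 10 CPM rest on about 1 count, and small changes there were not detectable at this depth.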
